A study of Mus musculus with 4 samples.

Results

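Adhesion G protein-coupled receptors were taken as the genes of the deposited table whose symbol is Adgr followed by a subfamily letter and a number, with 1 row per symbol. The rule found 27 genes among 48431 in the table, of which 21683 are annotated as protein-coding. Each symbol had a single row, so no level entered the choice of these rows. The rule leaves out the Celsr receptors, the C subfamily of the same family, which carry another symbol. Of the 27 members 19 were detected, meaning at 1 CPM (the gene's reads scaled to a common library total) or more in all 4 libraries, and 1 of them, Adgrg1, held 40.6% ± 3.43 (SD, n = 4) of the family's summed CPM.

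The libraries are ribosome footprints, the short mRNA pieces that a ribosome shields from nuclease, prepared from dorsal root ganglia (DRG), where the somata of sensory neurons lie among glia, vessels and connective tissue. All 4 form a single group from female wild-type (WT) mice of the SW strain that had been given paclitaxel, a microtubule-stabilising chemotherapy drug with painful neuropathy as a side effect, by intraperitoneal injection of 4 mg/kg on alternate days for a total of 4 injections. The labels give no ages, and nothing in them says whether each library came from its own animal or from pooled ganglia, so p-values measure the spread between these libraries, which may be technical. Untreated mice and RNA abundance libraries were not analysed here, so no level below is an effect of the drug or a translation efficiency.

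Adhesion receptors join a long extracellular part, built to bind matrix or the surface of a neighbouring cell, to a membrane-spanning domain that signals through G proteins. Most are cut at a GAIN domain next to the membrane, and the short stretch left behind acts as a tethered agonist when the outer fragment is pulled away or rearranged. In peripheral nerve the best studied is Adgrg6 (GPR126), which Schwann cells need to start myelination through cyclic AMP. Adgrg1 (GPR56) is known in glial progenitors, muscle and lymphocytes, Adgre1 (F4/80) as a macrophage surface marker, and the latrophilins and BAI receptors as synaptic adhesion proteins.

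Depth was 5731491, 9255057, 14633434 and 10424944 assigned reads in replicates 1 to 4, read from the step that 1 read contributes to the deposited values. For a gene without reads, counting error alone allows a level of 3 reads, equal to 0.523, 0.324, 0.205 and 0.288 CPM from replicate 1 to replicate 4. All 6 neuron markers were detected, with a summed level of 7223 to 8584 CPM per library, as were all 6 myelinating Schwann cell markers (12403 to 19171 CPM) and all 5 satellite glia markers (6795 to 7900 CPM). Fibroblast markers (5 of 5 detected, 9207 to 15837 CPM) and skeletal muscle markers (4 of 4 detected, 900.5 to 3902 CPM) were also present, and muscle markers differed most in proportion between libraries. In whole ganglia, fewer cells of a type and less RNA per cell cannot be told apart.

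Detection was the first comparison. The 19 detected members are 70.4% of the family, beside 62.5% of protein-coding genes and 30.4% of all genes in the table. These shares are not matched for length, and a long coding sequence reaches 1 CPM more easily. The median coding sequence was 3579 bp for the detected members, against 1428.5 bp for all detected genes. Subfamilies A, B, D, E and L had reads above the threshold for each of their members, 14 genes in all. Of 7 G members 4 were detected, of 5 F members only Adgrf5, and the single V member, Adgrv1, was not. Adgre4 lay just inside the threshold, with 3.49, 1.94, 2.32 and 1.34 CPM in replicates 1 to 4, and Adgrv1 just outside it, with 0.872, 0.432, 1.03 and 1.15 CPM. The CPM values take no account of length. Over its coding sequence of 18894 bp Adgrv1 had a mean of only 0.046 CPM per kilobase, against 1.10 for Adgre4.

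Footprint number grows with the length of the reading frame, so levels were compared between genes as CPM per kilobase (kb) of coding sequence. The detected members had a median of 6.77 CPM per kb, against 15.1 for all detected genes with a coding length. Before the length correction their median of 21.8 CPM was close to the 21.2 CPM of all detected genes, while their median coding sequence of 3579 bp compared with 1428.5 bp. Each gene's level was then set against the median detected gene of the same library, which stood at 15.5, 14.2, 15.9 and 14.3 CPM per kb in replicates 1 to 4, and tested with limma over 14128 genes. Of the 19 members tested, 4 were above that median at an adjusted p under 0.05 (21.1%, beside 44.0% of all genes tested), 14 were below it (73.7%, beside 48.1%) and Adgrl3 passed in neither direction. The median log2 difference from the median gene was -1.14 over the 19 members and -0.11 over all tested genes. Scaled to transcript length instead of coding length 7 members were above, and without any length correction 9 were above and 6 below.

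**Figure D1:**
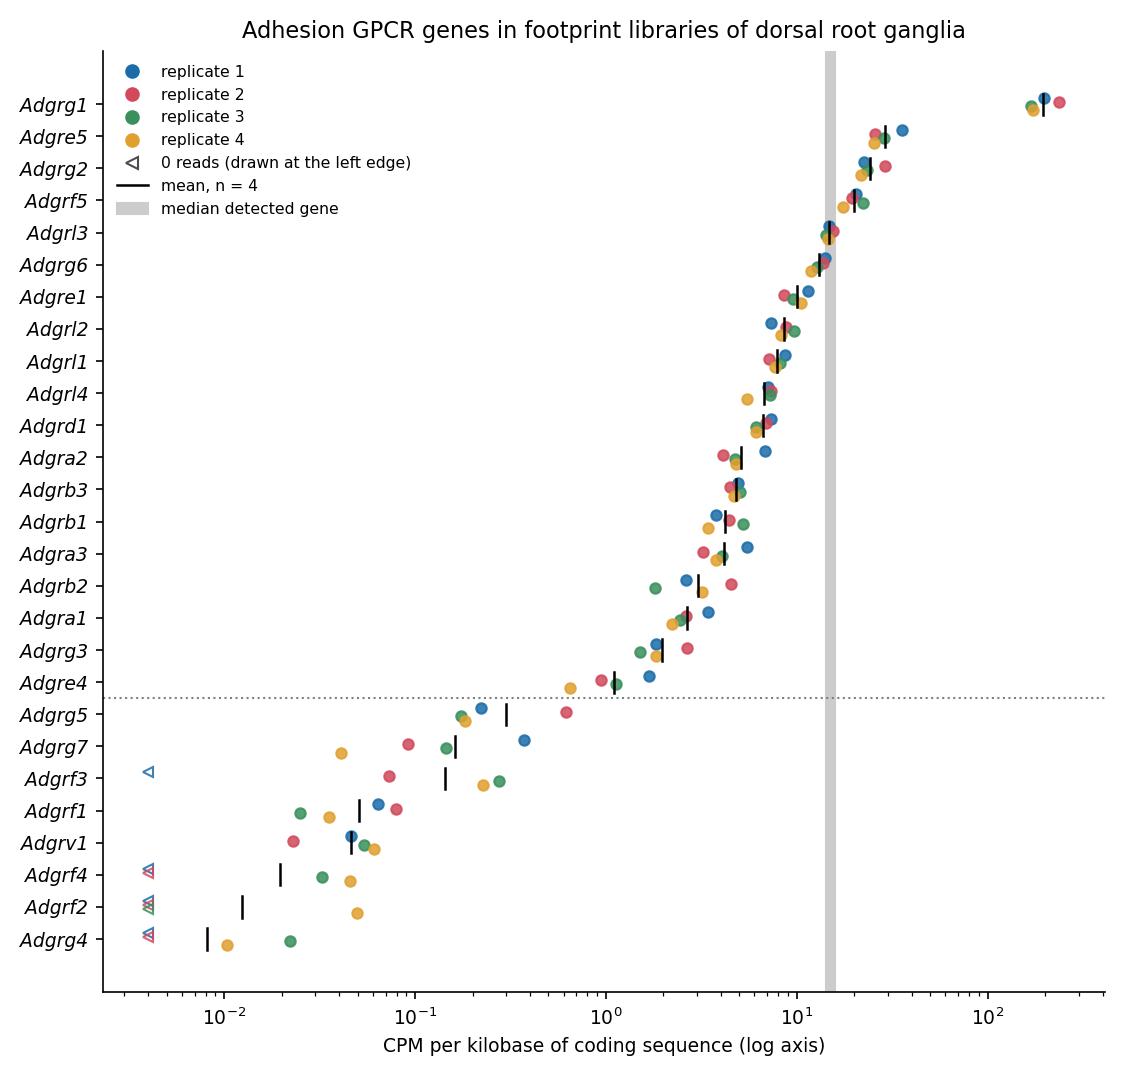
Footprint level of the 27 adhesion receptor genes in each library, on a log axis of CPM per kb of coding sequence, with circles for the 4 replicates, a bar for the mean and open triangles at the left edge for a library with 0 reads. The grey band marks the median detected gene and the dotted line divides the 19 detected genes from the 8 others. Adgrg1 sits apart at a mean of 194 CPM per kb.

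**Figure D2:**
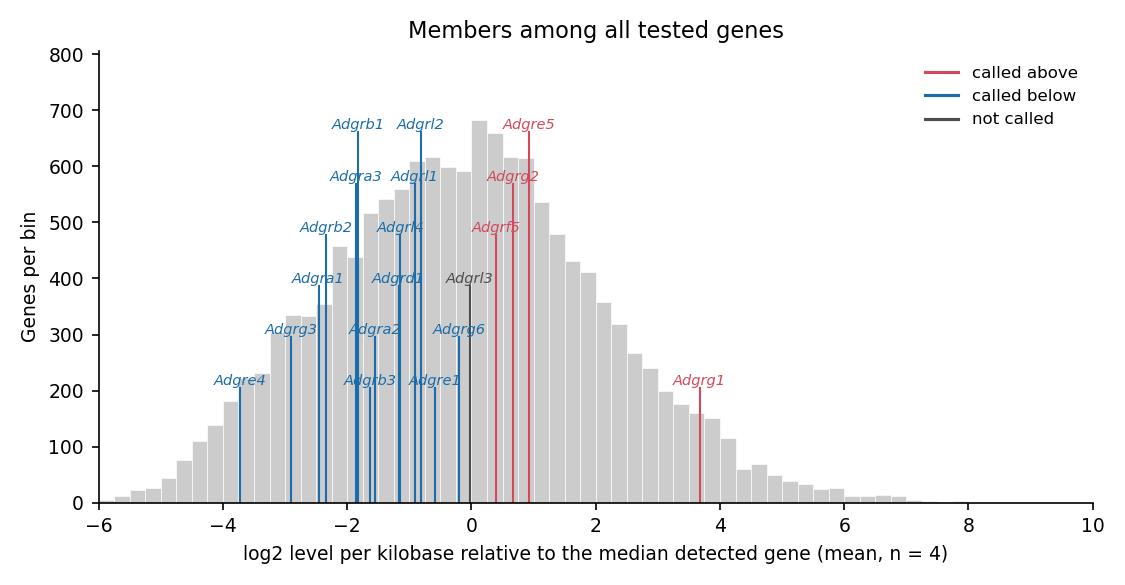
Where the 19 detected receptors fall among all tested genes, as log2 of CPM per kb of coding sequence relative to the median detected gene of the library (mean of 4 libraries). Grey bars count all genes per bin, and the vertical lines place the members, coloured by their call and with heights that carry no value. Most members lie to the left of 0, with Adgrg1 to the right at 3.67.

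The G subfamily led the family. Adgrg1, which binds collagen III and transglutaminase and signals through G12/13-type G proteins, had 405, 488, 349 and 356 CPM in replicates 1 to 4. Per coding length that was 194 ± 31.1 CPM per kb (SD, n = 4), 12.8-fold above the median gene (log2 3.67 ± 0.27, limma adjusted p = 9.2e-11) and higher than 94.9% of detected genes. Every library placed it above every other receptor, and it took 53.4% ± 3.47 of the family's summed CPM per kb. The nearest member, Adgre5, was 6.71-fold lower per kb (log2 ratio 2.75 ± 0.33), with no overlap between their ranges.

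Adgrg2 (HE6), best known from fluid reabsorption in the male efferent ducts, had 67.9, 87.6, 70.9 and 65.3 CPM in these female ganglia. At 24.1 ± 3.32 CPM per kb it was above the median gene (log2 0.67 ± 0.23, limma adjusted p = 3.2e-05). Of its 30-nt coding words 97.4% occur in no transcript of another annotated gene, searched on both strands. Adgrg6, the myelination receptor, had 50.4, 48.8, 45.7 and 42.5 CPM, or 13.1 ± 0.981 CPM per kb. It was called below the median gene by a small margin (log2 -0.20 ± 0.12, limma adjusted p = 0.034), and the call was lost without replicate 1, 3 or 4 (adjusted p = 0.069, 0.16 and 0.17). Scaled to transcript length Adgrg6 lay above the median gene, at log2 0.20. Adgrg3 (GPR97), known from granulocytes, was low, with 2.97, 4.32, 2.46 and 2.97 CPM (log2 -2.90 ± 0.39, limma adjusted p = 2.3e-08). The 6 neutrophil markers, all detected, summed to 931 to 1040 CPM in the same libraries.

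Within the subfamily the order Adgrg1, Adgrg2, Adgrg6, Adgrg3 held per kb in all 4 libraries without overlap. The log2 ratio of Adgrg1 to Adgrg2 was 3.00 ± 0.12, and Adgrg1 was 14.6-fold above Adgrg6 (3.87 ± 0.17) and 95.4-fold above Adgrg3 (6.58 ± 0.14). Ratios of this kind are given with their SD over 4 libraries and without a p, because an exact sign-flip test over 4 libraries cannot go below 0.125. The limma p-values of the levels rest on the same 4 libraries. They go lower because limma borrows variance from all tested genes. The 3 other G members stayed under the threshold. Adgrg5, of blood cells, had 2, 9, 4 and 3 reads, or 0.349, 0.972, 0.273 and 0.288 CPM. Adgrg7 had 5, 2, 5 and 1 reads and Adgrg4 had 0, 0, 3 and 1, and both are receptors known from the gut.

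Adgrg1 has neighbours of the same subfamily at both sides. On chromosome 8 (GRCm38) Adgrg5 at chr8:94923694-94943280, Adgrg1 at chr8:94974751-95014217 and Adgrg3 at chr8:95017692-95045250 lie on the plus strand within 122 kb, with 0 other protein-coding genes between them. Their levels were 0.471 ± 0.336, 399.9 ± 64.1 and 3.18 ± 0.798 CPM. A second row of receptor genes on chromosome 17 gave the same kind of contrast: over 803 kb holding 2 other protein-coding genes, Adgrf4, Adgrf2 and Adgrf1 had means of 0.0411, 0.0240 and 0.139 CPM, while Adgrf5 at chr17:43360451-43459557 had 80.4 ± 7.78 CPM. Start-site windows of 5 of these neighbours are shown because the genes sit side by side and differ so widely in footprints. The RefSeq table on GRCm38.p6 gives 300 bases per start, 250 before and 50 after, all here on the plus strand, and each CG step is in capitals.
Adgrg5, chr8:94923444-94923743: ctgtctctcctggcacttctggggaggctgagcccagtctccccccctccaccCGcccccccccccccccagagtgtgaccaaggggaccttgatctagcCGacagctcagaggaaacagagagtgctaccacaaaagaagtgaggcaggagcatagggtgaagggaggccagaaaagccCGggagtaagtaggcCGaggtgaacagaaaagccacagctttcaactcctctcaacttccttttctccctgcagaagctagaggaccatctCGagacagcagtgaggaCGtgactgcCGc
Adgrg1, chr8:94976859-94977158: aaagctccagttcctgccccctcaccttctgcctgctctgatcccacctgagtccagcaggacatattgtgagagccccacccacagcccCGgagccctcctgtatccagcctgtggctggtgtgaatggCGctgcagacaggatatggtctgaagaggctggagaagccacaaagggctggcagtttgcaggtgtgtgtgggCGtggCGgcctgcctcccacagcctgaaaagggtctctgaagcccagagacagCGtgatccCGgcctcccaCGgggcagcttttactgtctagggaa
Adgrg1, chr8:94984149-94984448: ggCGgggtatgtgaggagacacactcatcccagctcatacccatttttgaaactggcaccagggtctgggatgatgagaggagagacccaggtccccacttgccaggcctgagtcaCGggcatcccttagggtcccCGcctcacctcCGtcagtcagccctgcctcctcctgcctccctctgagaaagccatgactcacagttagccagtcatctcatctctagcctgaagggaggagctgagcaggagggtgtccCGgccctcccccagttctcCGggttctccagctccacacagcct
Adgrg3, chr8:95017442-95017741: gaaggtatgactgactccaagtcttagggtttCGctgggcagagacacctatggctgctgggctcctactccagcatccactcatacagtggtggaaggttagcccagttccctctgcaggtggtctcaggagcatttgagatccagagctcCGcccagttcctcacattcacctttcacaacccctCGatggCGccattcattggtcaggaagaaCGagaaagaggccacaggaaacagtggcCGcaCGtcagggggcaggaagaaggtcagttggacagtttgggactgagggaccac
Adgrf1, chr17:43270097-43270396: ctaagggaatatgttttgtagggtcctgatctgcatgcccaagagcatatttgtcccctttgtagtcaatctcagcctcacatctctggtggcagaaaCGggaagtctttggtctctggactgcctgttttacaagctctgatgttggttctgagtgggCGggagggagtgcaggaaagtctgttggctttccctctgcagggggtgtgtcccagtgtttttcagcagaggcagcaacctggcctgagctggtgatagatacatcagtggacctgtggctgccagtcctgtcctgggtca
Adgrf5, chr17:43360181-43360480: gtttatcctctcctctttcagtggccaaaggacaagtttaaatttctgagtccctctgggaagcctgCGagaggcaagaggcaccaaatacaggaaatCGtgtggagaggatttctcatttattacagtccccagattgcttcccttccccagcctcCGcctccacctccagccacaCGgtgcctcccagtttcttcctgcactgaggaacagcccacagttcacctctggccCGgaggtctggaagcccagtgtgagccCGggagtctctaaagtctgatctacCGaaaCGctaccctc

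The window of Adgrg5 covers chr8:94923444-94923743, the windows of Adgrg1 cover chr8:94976859-94977158 and chr8:94984149-94984448, and that of Adgrg3 covers chr8:95017442-95017741. The windows of Adgrf1 and Adgrf5 cover chr17:43270097-43270396 and chr17:43360181-43360480, and Adgrf5 has a further start with a window at chr17:43389216-43389515. CG steps did not order the G neighbours by level: Adgrg5 and Adgrg3 had 7 each, and the Adgrg1 windows had 7 and 6, beside a median of 7 over all 32851 windows. The Adgrf1 window held 2 and both Adgrf5 windows held 8, and the minus-strand window of Adgrf4 at chr17:42692235-42692534, not printed, held 4. Searched on both strands, the GC box GGGCGG, which itself contains 1 CG step, was found in the Adgrg5, Adgrg3 and Adgrf1 windows. It was not in those of Adgrg1, Adgrf5 or the undetected Adgrf4, and 35.7% of all windows had it. Whether it goes with level was not tested, and so few genes cannot settle it. The letters TATAAA were in none of these windows and in 13.6% of all. A match is a run of letters and not a shown binding site.

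Across the family 20 of the 27 members had 24 such windows, 14 detected genes and 6 undetected ones. The detected genes had a median of 16.5 CG steps per window (range 2 to 45) and the undetected genes 3.5 (range 0 to 14). Adgrb2 had the most, 45, more than 98.1% of all windows, although it was among the lower detected members, and Adgre4 had 2. GGGCGG was in a window of 8 of 14 detected and 3 of 6 undetected members.

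**Figure D3:**
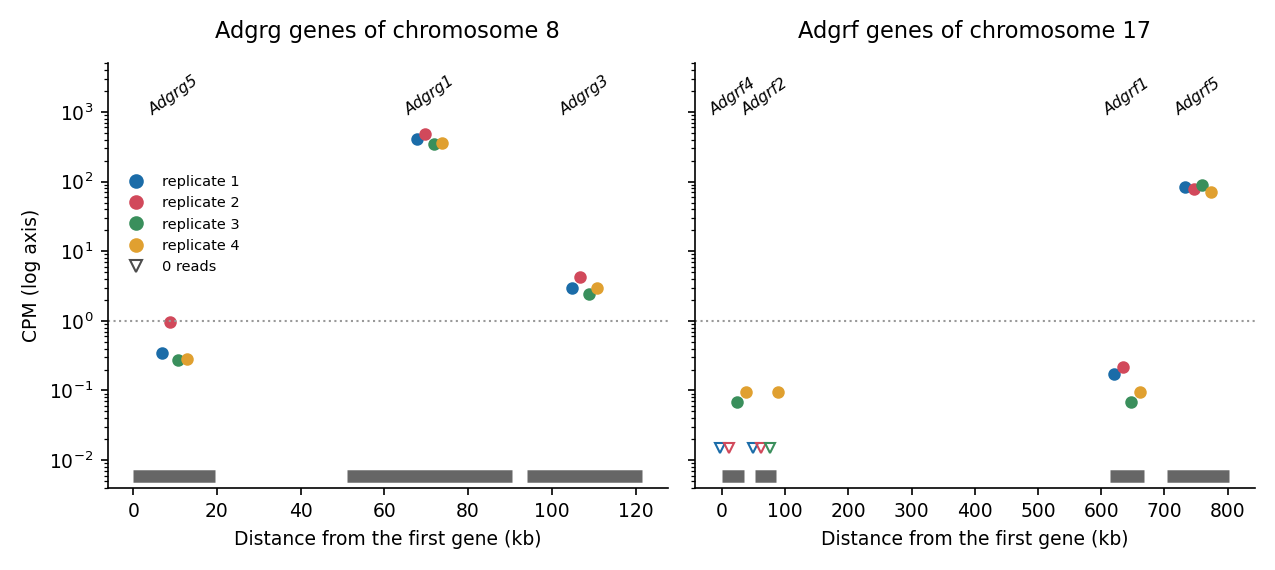
Levels along the neighbouring Adgrg genes of chromosome 8 and Adgrf genes of chromosome 17, with CPM per library on a log axis against distance from the first gene in kb. Bars at the bottom are the genes, circles are the 4 replicates, open triangles mark 0 reads and the dotted line is 1 CPM, with Adgrg1 and Adgrf5 far above their neighbours.

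Receptors of the E subfamily carry EGF-like repeats and are best known from leukocytes. Adgre5 (CD97), which binds CD55 and Thy1, had 87.4, 63.2, 70.4 and 62.2 CPM. It was above the median gene at 28.8 ± 4.75 CPM per kb (log2 0.93 ± 0.18, limma adjusted p = 7.3e-07), with replicate 1 the highest library. Only 76.4% of its 30-nt coding words are its own, since 573 words also occur in transcripts of Ddx39 or their reverse strand. Part of its reads could belong to that gene, but whether the match is on the same strand was not tested. Adgre1 (F4/80), on macrophages, had 31.9, 24.0, 26.7 and 29.4 CPM, or 10.03 ± 1.23 CPM per kb. This was below the median gene per coding length (log2 -0.58 ± 0.17, limma adjusted p = 7.4e-05) but above it per transcript length (0.46). The 7 macrophage markers, all detected, summed to 646, 479, 608 and 626 CPM, lowest in replicate 2 like Adgre1; whether the 2 move together was not tested. Adgre4, a myeloid receptor, was the lowest detected member at 1.10 ± 0.438 CPM per kb (log2 -3.72 ± 0.47, limma adjusted p = 1.1e-08). Per kb Adgre5 exceeded Adgre1 by 2.85-fold (log2 ratio 1.51 ± 0.17) and Adgre1 exceeded Adgre4 by 8.81-fold (3.14 ± 0.49), both in 4 of 4 libraries without overlap.

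Latrophilins, the L subfamily, reach across synapses to FLRT and teneurin proteins. Adgrl3 was the highest of them, with 69.6, 73.1, 67.2 and 68.9 CPM, a CV of 3.57% that was the smallest of the detected members. Its SD of 2.49 CPM was no larger than the 2.79 CPM that counting error alone gives. At 14.7 ± 0.526 CPM per kb it lay at the median gene (log2 -0.03 ± 0.12, limma adjusted p = 0.75), and 88.0% of its words are its own, the others being shared with Gm16054. Adgrl2 had 32.8, 39.2, 43.2 and 37.0 CPM (log2 -0.81 ± 0.18, limma adjusted p = 6.7e-06) and Adgrl1 39.6, 32.4, 37.2 and 34.9 CPM (log2 -0.91 ± 0.07, adjusted p = 9.4e-07). Of the Adgrl1 words 76.3% are its own, with most of the others shared with Gm10644. Adgrl4 (ELTD1), an endothelial receptor without the latrophilin ligand-binding part, had 15.7, 16.2, 16.1 and 12.1 CPM (log2 -1.14 ± 0.17, limma adjusted p = 5.5e-07). Adgrl3 exceeded Adgrl2 by 1.72-fold and Adgrl1 by 1.85-fold per kb in 4 of 4 libraries without overlap, whereas Adgrl2 and Adgrl1 could not be ordered (log2 ratio 0.10 ± 0.24, higher in 3 of 4; 0.50 per transcript length). Per transcript length Adgrl3 lay above the median gene, at 0.71, and Adgrl2 at 0.0059 could not be told from it (limma adjusted p = 0.95).

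The B subfamily, the BAI receptors, has roles at synapses, and its member Adgrb1 lets engulfing cells recognise apoptotic cells and signals through ELMO and DOCK. All 3 were below the median gene per kb. Adgrb3 had 22.3, 20.4, 23.1 and 21.4 CPM (log2 -1.63 ± 0.03, limma adjusted p = 2.4e-08), and Adgrb1 had 18.0, 20.9, 24.9 and 16.3 CPM (log2 -1.82 ± 0.23, adjusted p = 5.6e-08). Adgrb2 had 12.4, 21.5, 8.54 and 15.1 CPM (log2 -2.34 ± 0.61, limma adjusted p = 5.4e-06), with replicate 2 highest and replicate 3 lowest. Their order could not be fixed, since Adgrb3 exceeded Adgrb1 (log2 ratio 0.19 ± 0.24) and Adgrb2 (0.71 ± 0.61) in 3 of 4 libraries each, with overlapping ranges. Without a length correction Adgrb3 lay at log2 0.05 from the median gene.

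Adgra2 (GPR124), which with RECK serves WNT7 signalling in brain vessels, had 27.2, 16.5, 19.0 and 19.3 CPM (log2 -1.56 ± 0.27, limma adjusted p = 2.2e-07). Adgra3 followed with 21.5, 12.7, 15.9 and 14.9 CPM (log2 -1.86 ± 0.26, limma adjusted p = 7e-08), and Adgra1 with 5.93, 4.54, 4.24 and 3.84 CPM (log2 -2.46 ± 0.24, adjusted p = 1.4e-08). Replicate 1 was the highest library for all 3. Adgra2 exceeded Adgra3 in 4 of 4 libraries per coding length (log2 ratio 0.30 ± 0.06), although their ranges overlapped, and per transcript length the ratio was -0.025, so their order is not settled. Adgrd1 (GPR133), a receptor that raises cyclic AMP through Gs, had 19.9, 18.6, 16.6 and 16.6 CPM, at 6.61 ± 0.595 CPM per kb (log2 -1.17 ± 0.15, limma adjusted p = 3.5e-07).

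Adgrf5 (GPR116), known from surfactant control in lung and from endothelium, was the single detected F member, with 82.5, 78.8, 89.5 and 70.8 CPM. It was above the median gene at 19.9 ± 1.92 CPM per kb (log2 0.40 ± 0.08, limma adjusted p = 0.00025). The endothelial markers, 6 of 6 detected, summed to 281, 221, 246 and 216 CPM, and their highest, Cdh5, had 141, 113, 124 and 107 CPM. Both Adgrf5 and Adgrl4 were lowest in replicate 4, where this sum was also lowest, and neither had its highest library in replicate 1, where the sum was highest. The part of endothelial RNA in these values was not tested. The other F members had few reads: Adgrf3 0, 2, 12 and 7, Adgrf1 1, 2, 1 and 1, Adgrf4 0, 0, 1 and 1, and Adgrf2 0, 0, 0 and 1. Adgrv1 (VLGR1), the giant receptor of inner-ear stereocilia lost in a form of Usher syndrome, had 5, 4, 15 and 12 reads over a coding sequence of 18894 bp. The 8 undetected members together had 100 reads in 4 libraries, and at this depth low expression in a small group of cells was not detectable.

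In order of CPM per kb the 19 detected members form 18 neighbouring pairs. The higher gene led in all 4 libraries in 7 pairs, and the ranges did not overlap in 4: Adgrg1 over Adgre5, Adgrf5 over Adgrl3 (log2 ratio 0.43 ± 0.16), Adgrl3 over Adgrg6 (0.17 ± 0.09) and Adgrg6 over Adgre1 (0.39 ± 0.21). Scaled to transcript length 2 of these 4 turn round, since Adgrl3 (log2 0.71) then lies above Adgrf5 (0.58) and Adgre1 (0.46) above Adgrg6 (0.20). In the other 14 the ranges overlapped, so places such as Adgre5 before Adgrg2 or Adgra2 before Adgrb3 are not settled by these libraries.

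The spread between libraries passed the test against genes of the same level for none of the 19 members. The median CV of the 19 detected members was 13.8% (range 3.57% to 39.8%), against 13.3% over all detected genes. In the limma variance test 0 members were called, beside 1.54% of the 15728 genes tested, and 1 member, Adgrb2, was under 0.05 before adjustment, beside 6.61% of all genes. The limma adjusted p of Adgrb2 was 0.387. Of all genes 242 were called, against 148 without replicate 2 and 106 without replicate 3. The family sum was 1019, 1075, 936 and 894 CPM in replicates 1 to 4. Replicate 1 was the highest library for 9 members and replicate 2 for 6, while replicate 4 was highest for none and lowest for 9. Over all detected genes the shares with their highest value were 33.8%, 15.1%, 36.8% and 14.3% in replicates 1 to 4, and 33.9% had their lowest value in replicate 4.

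The members highest in replicate 1 were Adgre5, Adgre1, Adgre4, all 3 A receptors, Adgrg6, Adgrl1 and Adgrd1. The same library had the highest sums of fibroblast markers (15837 CPM, against 9207 to 11787 in the others), muscle markers (3902, against 900.5 to 1975) and endothelial markers. Sums of macrophage (646 CPM), neutrophil (1040), pericyte and smooth muscle (706), adipocyte (458) and lymphocyte (13.4) markers were also highest there. The neuron sum was lowest there (7223 CPM), and the Schwann cell and satellite glia sums were highest in other libraries. Adgrg1, Adgrg2, Adgrg3, Adgrb2, Adgrl3 and the endothelial Adgrl4 were highest in replicate 2. Sums of fibroblast, muscle, macrophage, satellite glia, adipocyte and lymphocyte markers were lowest in that library. Adgrf5, Adgrl2, Adgrb1 and Adgrb3 were highest in replicate 3. The part of these cell types in the members' spread was not tested.

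**Figure D4:**
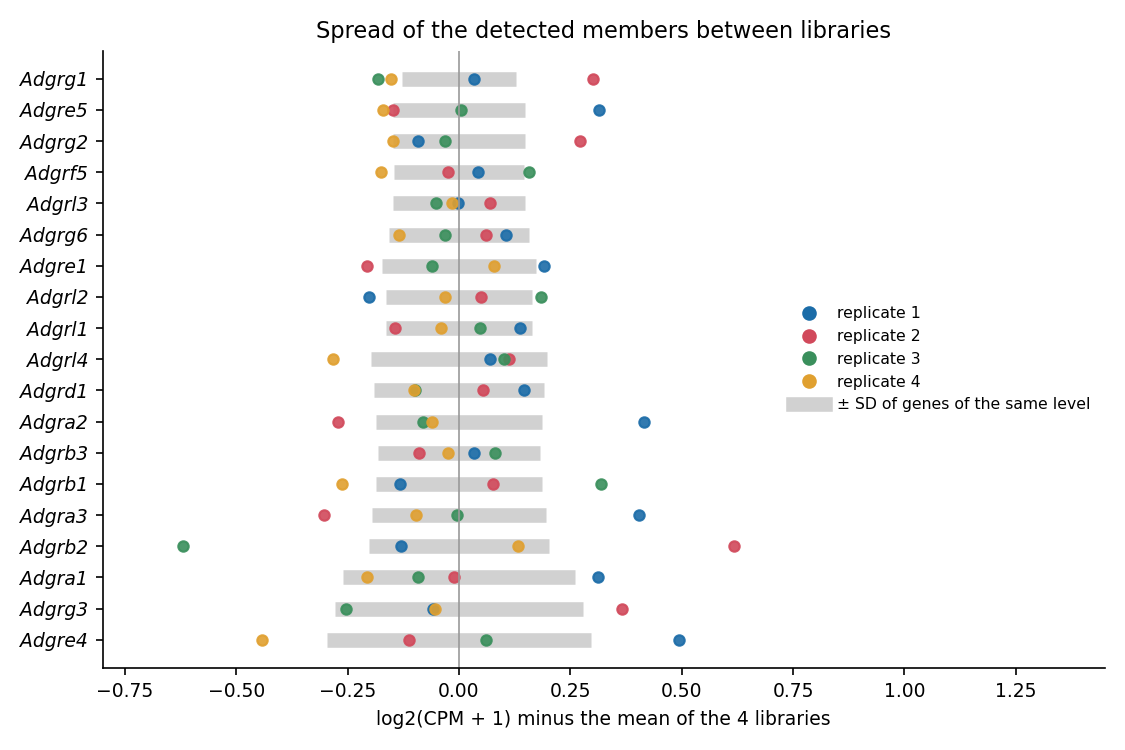
Spread of the 19 detected receptors, with each library's log2(CPM + 1) minus the mean of the 4 libraries on the horizontal axis and the genes ordered by level. Circles are replicates and grey bars show plus and minus the SD that limma's trend gives for genes of the same level, and Adgrb2 is the member whose points reach farthest beyond its bar.

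Ligands and effectors known for the receptors were read in the same libraries, as levels per kb against the median gene. For Adgrg1 both ligands were above it, Col3a1 at 394 ± 115 CPM per kb and Tgm2 at 33.1 ± 5.22. Col3a1 was lowest in replicate 2 (1027 CPM, against 1741 to 2208 in the others), the library where Adgrg1 was highest. That library also had the lowest fibroblast marker sum (9207 CPM) and the lowest value of 35.2% of all detected genes. Whether Col3a1 and Adgrg1 move in opposite directions was not tested. For Adgre5 both ligands were above it, Thy1 at 1171 ± 187 CPM per kb and Cd55 at 204 ± 15.8. All 6 genes for Adgrg6 ligands were above it (median log2 2.41), led by Prnp, the prion protein gene, at 801 ± 82.7 CPM per kb, Col4a1 at 119 ± 21.6 and Lamc1 at 85.9 ± 14.4.

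Of 6 Schwann cell genes listed downstream of Adgrg6, 4 were above the median gene and 2 below. The myelin genes Pmp22 and Mbp reached 9353 ± 1833 and 3451 ± 789 CPM per kb. Egr2, the transcription factor of myelinating Schwann cells, was also above the median gene (log2 1.12 ± 0.23, limma adjusted p = 3.9e-07), while Pou3f1 (-1.18 ± 0.19, adjusted p = 5.6e-07) and Pou3f2 (-0.78 ± 0.33, adjusted p = 0.00011), factors of the stage before myelination, were below it. These 3 were named after their values were seen.

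Per kb of coding sequence the latrophilin ligands were low, with 0 of 7 above the median gene and 7 below (median log2 -0.82). They were led by Flrt2 at 12.4 ± 1.04 CPM per kb, Flrt3 at 10.4 ± 0.336 and Tenm2 at 9.71 ± 1.24. Before the length correction Tenm2 (80.5 CPM) and Flrt2 (24.5) exceeded the median of 21.2 CPM over all detected genes, and Flrt3 (20.3) did not. Among 10 genes for partners of the BAI receptors 3 were above it, 5 below, 1 passed in neither direction and C1ql2 was undetected. The 3 above were the engulfment adaptors Elmo1 (71.9 ± 5.51 CPM per kb) and Elmo2 (23.8 ± 0.720) and the Nogo receptor relative Rtn4rl1 (44.6 ± 4.58). C1ql1, C1ql3, C1ql4, Rtn4r and Dock1 were below and Rtn4rl2 was at log2 -0.12 ± 0.32, all named after their values were seen.

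Of the Adgra2 partners Dlg1 (11.2 ± 1.04 CPM per kb), Reck (7.94 ± 0.793) and Wnt7a (1.93 ± 0.640) were below the median gene and Wnt7b was undetected. Of 4 Usher complex partners of Adgrv1, which was itself undetected, 2 were detected, and both, Myo7a (2.95 ± 0.590) and Whrn (1.83 ± 0.455), were below it. Pdzd7 was among the undetected ones. The Celsr receptors with their planar polarity partners had 9 of 10 genes below it and 0 above (median log2 -0.84), led by Celsr3 at 14.0 ± 5.82 CPM per kb, Dvl1 at 11.8 ± 0.999 and Fzd3 at 11.4 ± 1.23. Celsr3 was the member of that list with a called spread, at 63.9, 196, 170 and 126 CPM in replicates 1 to 4 (limma variance test, adjusted p = 0.018), a call that no Adgr gene received. The 9 G protein alpha subunit genes were all above the median gene (median log2 1.91), led by Gnao1 (log2 5.13 ± 0.24), Gnas (4.06 ± 0.07) and Gnai2 (3.57 ± 0.10). These lists stand beside the same backgrounds as the members, 44.0% of all tested genes above and 48.1% below, with a median of -0.11.

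**Figure D5:**
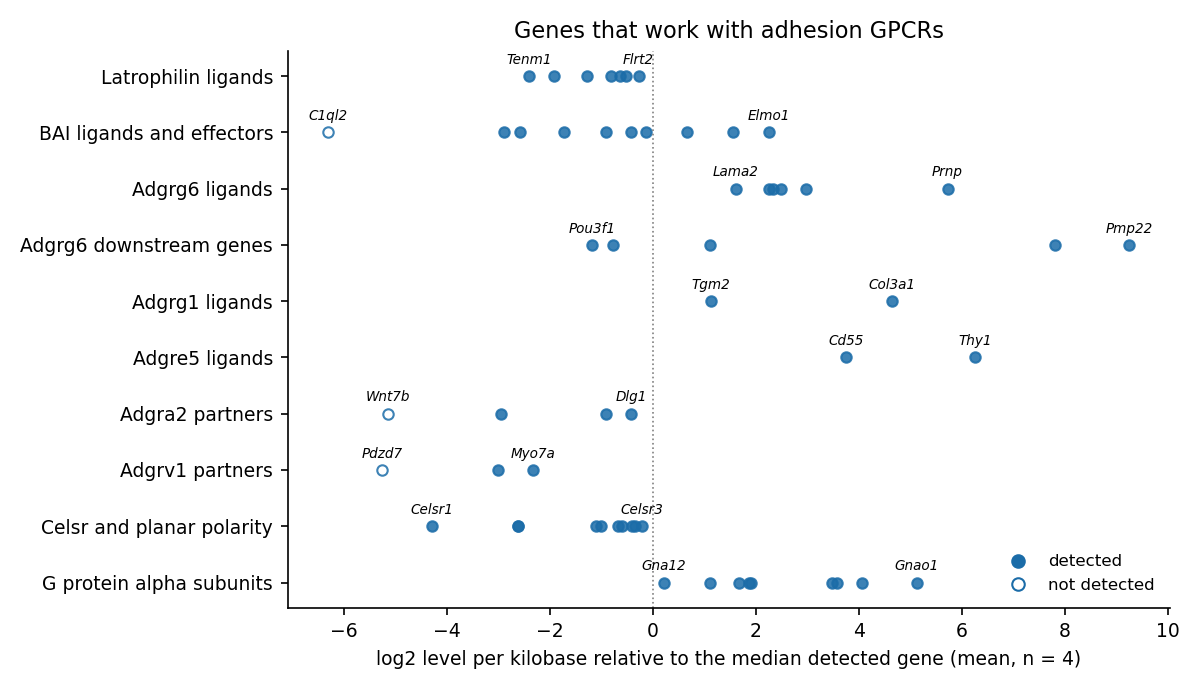
Genes of ligands and effectors of the receptors, as log2 of CPM per kb of coding sequence relative to the median detected gene (mean of 4 libraries), with 1 row per list, 1 point per gene reported here and open points for undetected genes. G protein subunits and the ligands of Adgrg6, Adgrg1 and Adgre5 lie to the right of 0, and the latrophilin ligands and the Adgra2 partners lie to its left.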

How the data were processed

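Ribosome-protected fragments were sequenced from 4 libraries of 1 group. Tools listed in the submitters' processing notes are Cufflinks 2.2.1, TopHat2 2.1.1, FastQC 0.11.5 and Bowtie2 2.2.9, and the builds are mm10 and GRCm38.p4, without roles. Not given in the sources used here: counting rule, strand setting and annotation release. The authors deposited 1 table named as TPM. Its columns have equal sums, and 96.5% to 96.7% of values above 0 are multiples of a single step (tolerance 0.05) whatever the gene's length, so the deposited values were treated as CPM without length correction. GENCODE M21 (GRCm38) supplied coordinates and lengths (identifiers: 48052 matched, 379 not, 22243 with a coding length). Levels are log2(CPM per kb of the longest coding sequence + 0.1) minus the library median, and the variance test used log2(CPM + 1). Both ran in limma 3.58.1 (R 4.3.3) with trended, robust prior variance, Benjamini-Hochberg adjustment over all genes averaging 1 CPM or more and a threshold of 0.05. Library pairs shared 0 identical values above 0, but their unequal depths alone would give that. The median chi-square per gene of a library pair was 1.56 to 2.23, against 0.455 from counting error alone, and all 4 were kept. On simulated libraries with a dispersion of 0.01 the level test recovered 100% of 1.5-fold genes, and the variance test 56% of 2-fold and 97% of 4-fold genes. All members are named, with the 3 highest and the undetected genes of each partner list and the sums of marker lists; some listed genes are not reported here, though kept in counts and medians. Members and lists were chosen with earlier results of these data known. Alternatives were other pseudocounts, filters, lengths, scalings and left-out libraries.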

Additional observations from a re-analysis of the deposited data

Results flagged for a closer look

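Adgrl4 in replicate 4 stood apart from the other libraries. It had 12.1 CPM there against 15.7 to 16.2 CPM in the other 3, a gap of 0.878 of the whole range. Adgrg5 in replicate 2 stood apart in the same way, with 9 reads (0.972 CPM) against 2 to 4 reads in the others and a gap of 0.892 of the range. Adgrf2 had its single read in replicate 4 and 0 reads elsewhere, a gap of 1.0 of the range that rests on 1 read. For normally distributed values chance sets such a library apart in about 1 of 20 groups, and 27 genes were looked at. That rate does not hold for counts of a few reads, as in Adgrg5. A gene with a single read, as Adgrf2, always has a gap of 1.0.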

How the results depend on the processing

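The length scaling changed the most calls. Without a length correction 9 members lay above and 6 below the median gene, and the estimate turned positive for Adgrb3 (0.047), Adgre1 (0.40), Adgrg6 (1.15), Adgrl1 (0.77), Adgrl2 (0.84) and Adgrl3 (1.72). Scaled to transcript length 7 lay above, with Adgre1 (0.46), Adgrg6 (0.20), Adgrl2 (0.0059) and Adgrl3 (0.71) turned. With no filter on low values 22 members and 10940 of all genes lay below, and the variance test called 1 member, Adgrb2, and 757 of all genes. Leaving out each replicate in turn gave 4 members above in each case, 13 to 15 below and 0 called for variance, while 106 (without replicate 3) to 205 of all genes were called for variance, 148 without replicate 2. Quantile normalisation and other pseudocounts left the level call of each of the 19 members as it was. Of 126 alternative values for ratios between members 16 moved by more than 1 SD. All of these came from scaling to transcript length or from a pseudocount of 1. Leaving out 1 of 4 libraries cannot shift a mean by 1 SD, so such values could not count as moved and show nothing about single libraries. The edgeR alternative was not run. Of values above 0, 96.5% to 96.7% were whole multiples of a read, and a check that all counts could be recovered was not passed. No paired analysis was possible because there is 1 group. Depth limits the 8 undetected members, and coding words shared with other genes on either strand may limit Adgre5, Adgrl1 and Adgrl3.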

Other observations

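Markers of other cell types in the ganglia were read beside the receptors. The 5 markers of pericytes and smooth muscle summed to 455 to 706 CPM per library and the 4 adipocyte markers to 189 to 458 CPM, with all of them detected. Of 6 lymphocyte markers 3 were detected, and the list summed to 8.43 to 13.4 CPM.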
